A study of Mus musculus with 6 samples.

Results

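Transcripts of 10 genes of the early myeloid programme were followed in haematopoietic stem cells (HSCs), the marrow cells from which every blood lineage is renewed. The 10 genes were taken by name from the count and FPKM tables: Mpo, Elane, Prtn3 and Ctsg, which encode granule enzymes, the transcription factor genes Spi1, Cebpa, Cebpe, Irf8 and Gfi1, and Plac8. All 10 had 1 row each in the count table of 18368 genes and in the FPKM table of 35275 genes, and 8 of them passed the filter on low counts, as did 14443 genes in all. The genes were selected on earlier results of these same data: 9 by role, with their levels known, and Plac8 chosen by its lower counts in the mutant libraries, so the difference of Plac8 between the genotypes is a description and not a test. FPKM, the unit used for levels, scales reads by gene length and by library depth.

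Each library came from about 2000 sorted HSCs of adult mouse bone marrow. There were 3 libraries from Ramp1+/+ mice (the wild type) and 3 from mice whose genotype the labels write as Ramp-/-, with titles that name it as a Ramp1 mutant. Ramp1 encodes the accessory subunit of the receptor for the neuropeptide CGRP, and the study asked how pain-sensing nerves act on stem cell mobilization. The labels name neither the allele nor the age in weeks, the sort markers, the background strain, or whether a library held the cells of 1 animal or of several, and p-values then reflect only the library-to-library spread, which may be technical.

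Myeloid priming is the low-level transcription of myeloid genes in stem and multipotent cells before commitment. PU.1, encoded by Spi1, and C/EBP alpha, encoded by Cebpa, are the factors that open this programme, and the granule enzymes Mpo, Elane, Prtn3 and Ctsg are made in bulk once cells become granulocyte-monocyte progenitors and promyelocytes. Secondary granule genes such as Ltf and Camp follow later, under Cebpe and Gfi1. Plac8 encodes a small cysteine-rich protein that is abundant in myeloid and lymphoid-primed progenitors and in several mature leukocytes.

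The libraries held 22796771 to 26734561 reads counted in genes. Ramp1 stood at 91.4, 88.3 and 91.0 FPKM in wild-type replicates 1, 2 and 3 and at 3.53, 2.65 and 1.35 FPKM in the mutant ones, lower in every mutant library. All 12 HSC markers examined were detected, and their summed level was 904 to 1061 FPKM in wild type against 892 to 1131 FPKM in mutant libraries. Reads of 4 Y-linked genes were present in replicate 1 of each group (6527 in wild type, 6137 in mutant) and at most 2 elsewhere. Summed mature neutrophil markers, 16 genes with none of them at 0 in every library, ranged from 74.2 to 899 FPKM in wild type against from 210 to 1234 FPKM in mutant libraries.

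The proximal promoters of the genes on which the results turn are printed here so that the granule genes that moved together, the one that did not, and Plac8 can be compared. Each run is the 250 bases before the RefSeq transcription start on GRCm38.p6, a patch release of the assembly called mm10, written 5′ to 3′ on the strand of the gene. Capitals mark the PU.1 core GAGGAA and the C/EBP core TTNNGNAA on either strand.
Mpo (chr11:87793534-87793783, plus strand): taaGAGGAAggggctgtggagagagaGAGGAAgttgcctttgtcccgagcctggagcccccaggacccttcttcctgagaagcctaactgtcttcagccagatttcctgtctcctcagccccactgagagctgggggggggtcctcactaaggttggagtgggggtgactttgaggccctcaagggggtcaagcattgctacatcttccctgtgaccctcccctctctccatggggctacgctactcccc
Elane (chr10:79886062-79886311, plus strand): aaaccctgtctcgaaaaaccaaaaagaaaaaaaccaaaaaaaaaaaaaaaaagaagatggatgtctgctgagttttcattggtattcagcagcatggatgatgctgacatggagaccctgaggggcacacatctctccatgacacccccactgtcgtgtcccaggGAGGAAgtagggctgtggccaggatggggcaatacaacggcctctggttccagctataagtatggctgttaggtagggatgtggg
Ctsg (chr14:56102575-56102824, minus strand): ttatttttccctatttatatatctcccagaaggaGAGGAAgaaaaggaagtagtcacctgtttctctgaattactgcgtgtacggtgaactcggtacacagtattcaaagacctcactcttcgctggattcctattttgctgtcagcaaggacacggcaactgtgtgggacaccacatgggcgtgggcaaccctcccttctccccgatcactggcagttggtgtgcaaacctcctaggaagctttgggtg
Prtn3 (chr10:79879417-79879666, plus strand): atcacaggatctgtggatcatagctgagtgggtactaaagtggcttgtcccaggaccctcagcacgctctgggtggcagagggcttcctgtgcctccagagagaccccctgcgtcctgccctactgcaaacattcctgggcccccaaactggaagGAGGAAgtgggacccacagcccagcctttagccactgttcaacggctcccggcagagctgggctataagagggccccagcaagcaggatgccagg
Plac8 (chr5:100572206-100572455, minus strand): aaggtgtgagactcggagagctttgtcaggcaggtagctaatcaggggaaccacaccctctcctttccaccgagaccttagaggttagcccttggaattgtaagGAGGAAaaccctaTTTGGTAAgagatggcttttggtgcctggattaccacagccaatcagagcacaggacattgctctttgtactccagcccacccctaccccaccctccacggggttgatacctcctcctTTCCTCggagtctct
All 5 printed windows held GAGGAA, which 23.3% of the 32851 RefSeq promoter windows of this length also held. It was in 5 of the 11 windows listed for the set: the windows of Cebpa, Irf8 and Gfi1 and a second one of Plac8, chr5:100563097-100563346 inside the gene, had no match. In Mpo, Elane, Prtn3 and Ctsg every match lay on the coding strand, at 247 and 224 bases before the start in Mpo, 85 in Elane, 95 in Prtn3 and 216 in Ctsg, counted from the first base of the match. The printed window of Plac8 had 1 match on each strand. The C/EBP core was present in 3 of the 11 windows, against 36.8% of all windows. These were both windows of Plac8 and 1 of Gfi1, and none of the 4 granule genes had it. The Myb core AACNGNC occurred in 5 of the 11, against 27.7% of all windows. These were the windows of Mpo, Elane and Ctsg and the second windows of Plac8 and Irf8. The window of Prtn3 and the printed one of Plac8 had no Myb core. A Gfi1 core of 10 letters was in none of the 11 (2.4% of all windows). In all, 8 of the 10 genes had a window in the RefSeq table; Spi1 and Cebpe were the others. The RefSeq start matched the start in the count table for Elane and Ctsg and differed from it by 203 bases for Mpo, 40 for Plac8 and 5191 for Prtn3. A match of letters describes the window and says nothing of whether the factor is bound there.

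Mpo, Elane and Ctsg were high in replicate 2 of both genotypes and low or near 0 in the other 4 libraries. The difference between libraries of 1 genotype was many times that between the genotypes. In a bulk library, fewer cells of a type and less RNA per cell cannot be told apart, here or in any result that follows.

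Mpo (ENSMUSG00000009350, protein-coding, mm10 chromosome 11, 87793581 to 87804413), the myeloperoxidase of primary granules, had 3.10, 19.3 and 4.05 FPKM in wild-type replicates 1, 2 and 3 and 2.66, 16.9 and 3.84 FPKM in mutant replicates 1, 2 and 3. Replicate 2 exceeded the mean of the other libraries of its group 5.41-fold in wild type and 5.19-fold in mutant, on CPM, reads scaled to library depth. The groups overlapped throughout, with a log2 fold change of -0.18 for mutant minus wild type (SE 0.87, edgeR quasi-likelihood test, adjusted p = 0.999).

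Elane (ENSMUSG00000020125, chromosome 10, 79886312 to 79888216), which encodes neutrophil elastase, had 19, 606 and 3 reads in wild-type replicates 1, 2 and 3 against 0, 750 and 8 reads in the mutant ones. In FPKM this was 0.815, 26.5 and 0.140 against 0, 30.5 and 0.350. With 0 reads in mutant replicate 1, a level of up to 0.143 FPKM, the worth of 3 reads, was allowed by counting error alone. Replicate 2 stood 55.5-fold above the mean of the other wild-type libraries, which held 22 reads, and 174-fold above that of the other mutant libraries, which held 8. The log2 fold change between genotypes was 0.16 with an SE of 2.0, and its 95% interval ran from -4.46 to 4.79, so that no difference of ordinary size was detectable for this gene.

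Ctsg (ENSMUSG00000040314, chromosome 14, 56099881 to 56102574) encodes cathepsin G, a further serine protease of the same granules. It had 0, 79 and 1 reads in wild type and 0, 131 and 1 reads in mutant libraries, so that replicate 2 of each genotype held all but 1 of the reads of its group. It did not pass the filter on low counts and was not tested by edgeR.

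Prtn3 (ENSMUSG00000057729, chromosome 10, 79874476 to 79883174), which encodes proteinase 3, followed another pattern although it ends only 3137 bases before Elane begins. It had 58.9, 70.2 and 27.5 FPKM in wild type against 71.6, 34.9 and 44.0 FPKM in mutant libraries. The highest library was mutant replicate 1, in which Elane and Ctsg had no reads, and mutant replicate 2, the highest for Elane and Ctsg, was the lowest mutant library for Prtn3. Its log2 fold change was -0.07 (SE 0.37, 95% interval -0.92 to 0.79; edgeR adjusted p = 0.999).

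The make-up of the 4 granule transcripts therefore differed between libraries. Prtn3 supplied 93.8% of their summed FPKM in wild-type replicate 1, 86.7% in replicate 3, 96.4% in mutant replicate 1 and 91.2% in mutant replicate 3. In replicate 2 its share was 58.9% in wild type and 40.0% in mutant, where Elane made up 22.2% and 35.0% and Mpo 16.2% and 19.4%. The ratio of Elane to Prtn3 in FPKM was 0.377 and 0.875 in these libraries and at most 0.0138 in the other 4.

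The gene model of Prtn3 in the count table starts 5191 bases before the RefSeq start and shares 159 bases with BC005764 on the opposite strand, a gene with 37.1 FPKM in wild type against 31.3 FPKM in mutant libraries. The strand setting of the counting is not known from the sources used, so some reads in this stretch may belong to either gene. How many of the Prtn3 reads lie there was not tested.

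**Figure D1:**
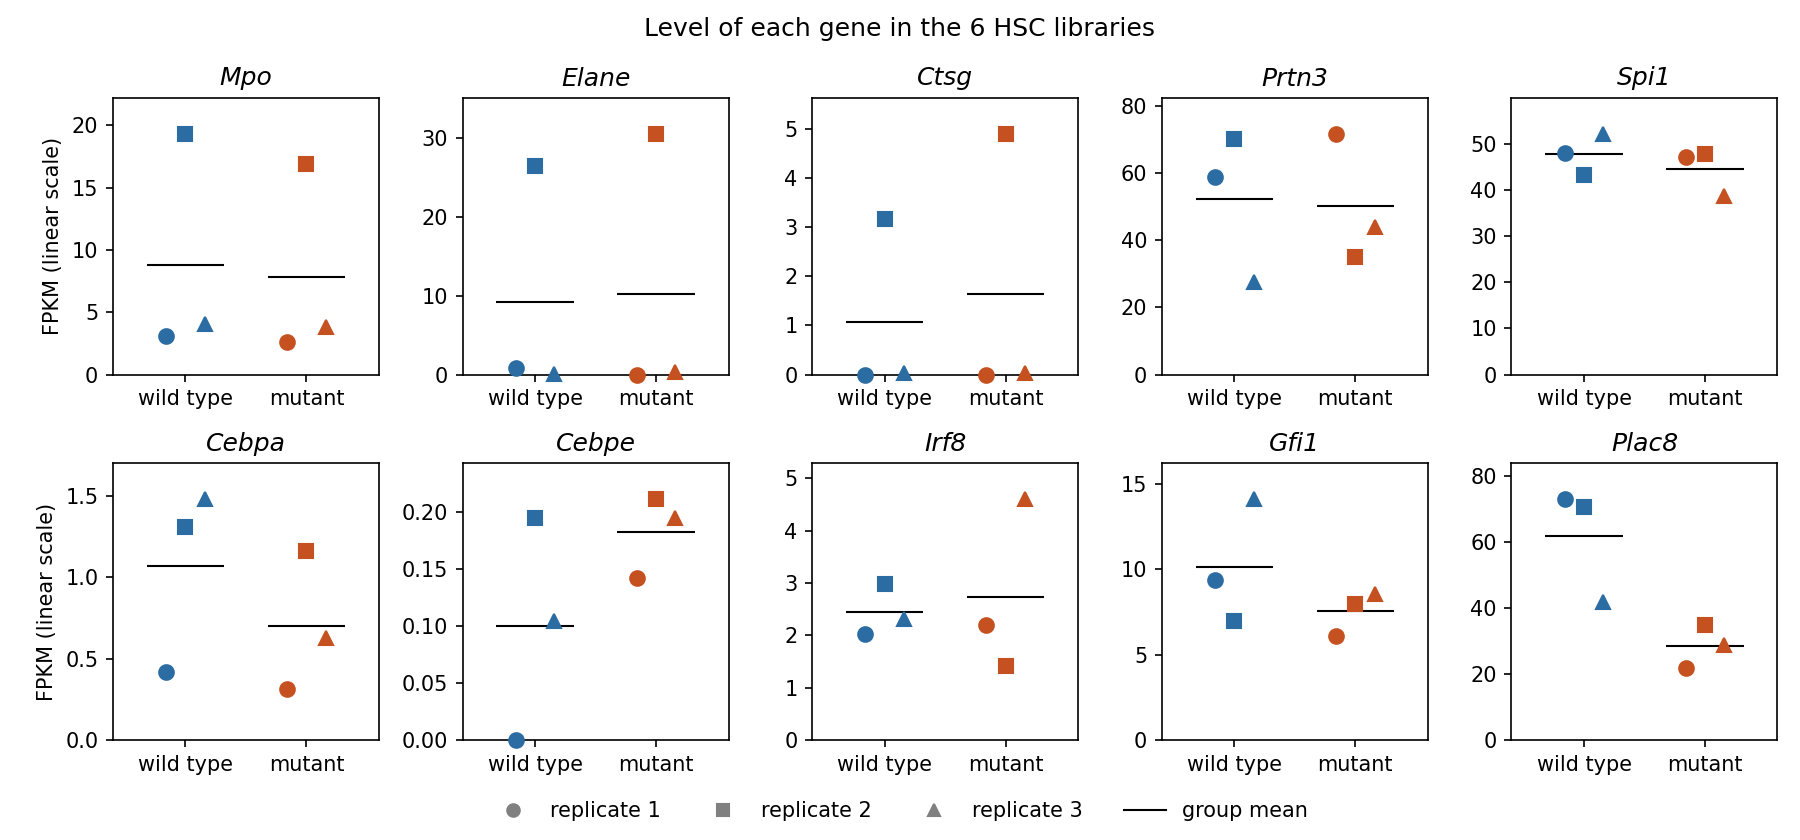
Level of each of the 10 genes in FPKM on a linear axis from 0, by genotype, with 1 symbol per library, its shape giving the replicate number, and a line at the group mean. Mpo, Elane and Ctsg are highest in replicate 2 of both genotypes (16.9 and 19.3 FPKM for Mpo), whereas Plac8 is the gene whose mutant values (21.7 to 34.8 FPKM) all lie below the wild-type ones (41.7 to 72.8 FPKM).

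Mature neutrophil markers did not follow Mpo, Elane and Ctsg across the libraries. Their summed level was 329 FPKM in wild-type replicate 2 and 894 FPKM in mutant replicate 2, lower in both genotypes than in replicate 3 (899 and 1234 FPKM), and it was lowest in replicate 1 (74.2 and 210 FPKM). Ngp, a neutrophil granule protein gene, had 1.98, 40.8 and 128 FPKM in wild type against 8.33, 59.8 and 135 FPKM in mutant libraries. S100a8, the most abundant of these markers, had 11.8, 99.7 and 288 FPKM against 75.9, 355 and 445 FPKM. All 16 tested markers had higher values in mutant cells, by a median log2 fold change of 0.68 against 0 over all genes tested, with 0 of them past an unadjusted p of 0.05. Of all genes tested, 49.9% had lower values in mutant cells. Several of these markers, such as Ngp and S100a8, rose and fell together over the libraries, so their shared direction does not count as 16 separate observations. B cell markers, of which 4 of 6 were tested and Pax5 was at 0 in every library, had their highest median in replicate 2 of each genotype, at 0.89 and 1.0 in centred log2 CPM. It was -1.34 and -1.50 in the other wild-type and 0.06 and 0.68 in the other mutant libraries, while their summed level was 37.8 to 42.5 FPKM in wild type against 34.8 to 48.5 FPKM in mutant. The part of neutrophil or B cell RNA in the granule genes was not tested.

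Of 18 other granule and granulocyte-monocyte progenitor genes, 4 were highest in replicate 2 of both genotypes by log2 CPM, which was so for 10.2% of all genes tested, and 3 by FPKM. The clearest were Ms4a3, a membrane protein gene of granulocyte-monocyte progenitors, and Fcnb, which encodes ficolin B. Ms4a3 had 0.420, 3.64 and 0.598 FPKM in wild type against 0.438, 3.51 and 0.402 FPKM in mutant libraries. Fcnb was listed at 0, 2.78 and 0.914 FPKM and at 0, 3.71 and 0.482 FPKM. Both were singled out after their values were seen. Between genotypes 13 of the 18 had higher and 5 lower values in mutant cells (median log2 fold change 0.09), and 0 had an unadjusted p under 0.05. The abundant genes of the list varied little: Lyz2, which encodes lysozyme, had 473 to 551 FPKM in wild type against 493 to 614 FPKM in mutant, and Srgn, the proteoglycan that packs granules, 452 to 498 and 490 to 499 FPKM. Cd63, a granule membrane gene, had 433 ± 5.45 and 484 ± 30.5 FPKM, and the chaperone gene Calr 354 ± 4.45 and 360 ± 35.9 FPKM (SD, n = 3 each).

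**Figure D2:**
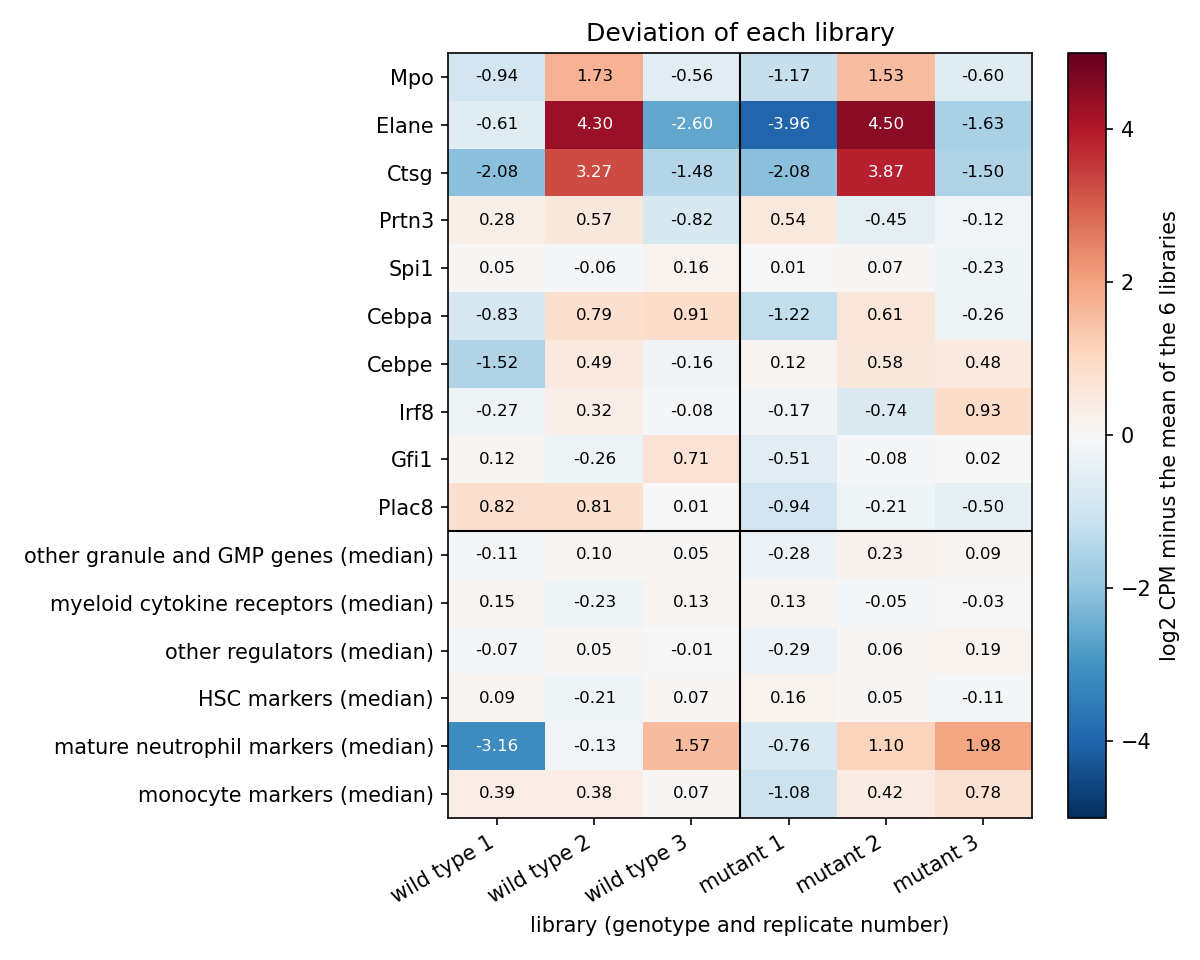
Log2 CPM of each gene, and the median over each list, minus the mean of the 6 libraries, for 3 wild-type and 3 mutant libraries (colour and printed value). Elane stands at 4.30 and 4.50 in replicate 2 of wild type and mutant, while the mature neutrophil median is highest in replicate 3 (1.57 and 1.98).

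The transcription factor genes varied less between libraries than Mpo and Elane, and none of the 4 tested differed between the genotypes beyond its spread. Spi1 was abundant and the steadiest of the 8 tested genes of the set. Spi1 (ENSMUSG00000002111, chromosome 2, 91082390 to 91115756) had 47.9, 43.3 and 52.1 FPKM in wild type against 47.1, 47.8 and 38.8 FPKM in mutant libraries. Its log2 fold change of -0.10 had a 95% interval of -0.37 to 0.18 (SE 0.12; edgeR adjusted p = 0.999), so the mutant level lay between 0.772 and 1.13 times that of wild type on this estimate.

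Cebpa (ENSMUSG00000034957, chromosome 7, 35119293 to 35121926) had 0.419, 1.31 and 1.48 FPKM in wild type against 0.316, 1.16 and 0.627 FPKM in mutant libraries, from 19 to 91 reads each. Replicate 1 was the lowest library of both groups, and the log2 fold change was -0.59 (SE 0.63). Gfi1 (ENSMUSG00000029275, chromosome 5, 107716657 to 107726036), a repressor that favours the neutrophil over the monocyte fate, had 9.39, 6.98 and 14.1 FPKM in wild type against 6.10, 7.98 and 8.58 FPKM in mutant libraries. The highest value was that of wild-type replicate 3 and the other 5 overlapped, with a log2 fold change of -0.42 (SE 0.26, 95% interval -1.03 to 0.19). It shares 880 bases with A430072P03Rik on the other strand, which had 5 to 29 reads per library against 398 to 945 for Gfi1.

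Irf8 (ENSMUSG00000041515, chromosome 8, 120736358 to 120756694), which directs monocyte and dendritic cell fates, had 2.02, 2.98 and 2.31 FPKM in wild type against 2.19, 1.42 and 4.60 FPKM in mutant libraries. The mutant libraries held both the lowest and the highest value, and the log2 fold change of 0.17 (SE 0.43) became -0.45 without mutant replicate 3. Cebpe (ENSMUSG00000052435, chromosome 14, 54710363 to 54712174), a factor of later granulocyte stages, had 0 to 7 reads per library and did not pass the filter. The edgeR adjusted p of Cebpa, Gfi1 and Irf8 was 0.999 each.

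Ordered by mean FPKM over the 6 libraries, Prtn3 (51.2), Spi1 (46.2) and Plac8 (45.0) came first, and their ranges overlapped. Elane (9.71), Gfi1 (8.86) and Mpo (8.31) followed with overlapping ranges, the mean of Elane resting on replicate 2 of each group. Irf8 (2.59), Ctsg (1.36), Cebpa (0.886) and Cebpe (0.141) were the lowest. This order holds for the means only. The range of Elane, 0 to 30.5 FPKM, overlapped those of Prtn3 and Plac8 above it and of every gene below it. That of Mpo, 2.66 to 19.3 FPKM, also overlapped those of Irf8 and Ctsg. Prtn3 and Spi1 lay above 87.6% and 86.0% of the tested genes by mean FPKM. The SD within groups on the log2 CPM scale, which is also wider for low counts, was 0.139 for Spi1, 0.399 for Gfi1, 0.631 for Prtn3, 0.943 for Cebpa, 1.43 for Mpo and 3.98 for Elane. The median over all tested genes was 0.236.

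Plac8 was the only one of the 10 genes whose mutant libraries all lay outside the wild-type range. Plac8 (ENSMUSG00000029322, chromosome 5, 100553725 to 100572245) had 72.8, 70.4 and 41.7 FPKM in wild-type replicates 1, 2 and 3 and 21.7, 34.8 and 28.6 FPKM in mutant replicates 1, 2 and 3. The means were 61.6 ± 17.3 and 28.4 ± 6.53 FPKM (SD, n = 3 each), so the mutant mean was 46.1% of the wild-type mean. The lowest wild-type library, replicate 3, and the highest mutant library, replicate 2, were the closest values across the groups. These are the values for which the gene was chosen.

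The log2 fold change of Plac8 was -1.12 (SE 0.26), against a median of -0.10 over the other 7 tested genes of the set and 0 over all genes tested. The edgeR test, adjusted over all genes, called 0 of the 8 tested genes of the set (0.0208% of all genes were called), and 1 of the 8, Plac8, had an unadjusted p under 0.05 (3.99% of all genes). DESeq2 on the same counts gave an adjusted p to 8 genes of the set, not the same 8, since Elane had none. It called 1 of these, again Plac8 (0.265% of all genes), and 1 gene of the set had an unadjusted p under 0.05 (3.98% of all genes). The authors' deposited table also lists Plac8 among its calls (0.231% of its genes), with a log2 fold change of -1.12. These calls use the contrast that chose the gene and share the same counts. FPKM values of the groups did not overlap for 1 of the 10 genes, against 10.3% of the tested genes in either direction and 4.32% with lower mutant values.

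The size of the Plac8 difference varied with the libraries compared, while its direction in any split follows from groups that do not overlap. In the 1 library of each genotype with Y-linked reads Plac8 had 72.8 FPKM in wild type against 21.7 FPKM in mutant, or 29.8% of wild type. In the other 2 of each genotype the means were 56.0 and 31.7 FPKM, or 56.6%. Without both replicate 1 libraries the log2 fold change was -0.82 (SE 0.29), and without both replicate 2 libraries, those high in Mpo and Elane, it was -1.17 (SE 0.31).

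Marker lists of other blood cells that may contain Plac8 transcripts had the following levels beside it. Summed mature neutrophil markers were on average higher in the mutant libraries, the other way from Plac8, with the overlapping ranges given above. The 11 monocyte and macrophage markers summed to 19.3 to 27.1 FPKM in wild type against 11.5 to 25.4 FPKM in mutant libraries, with 4 of the 9 tested higher and 5 lower (median log2 fold change -0.02), none at 0 in every library and 4 (Ccr2, Fcgr1, Adgre1 and Cx3cr1) below 1 FPKM in each. The 1 with an unadjusted p under 0.05, Cd68, which encodes a lysosomal glycoprotein of macrophages, had 11.9 ± 0.308 FPKM in wild type against 7.24 ± 2.67 FPKM in mutant (SD, n = 3 each). Its log2 fold change was -0.71 (SE 0.30, unadjusted p = 0.0478, edgeR adjusted p = 0.999). The 9 dendritic cell markers summed to 294 to 632 FPKM in wild type against 277 to 630 FPKM in mutant libraries, with Siglech and Itgax below 1 FPKM. The part of such cells in the Plac8 difference was not tested.

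**Figure D3:**
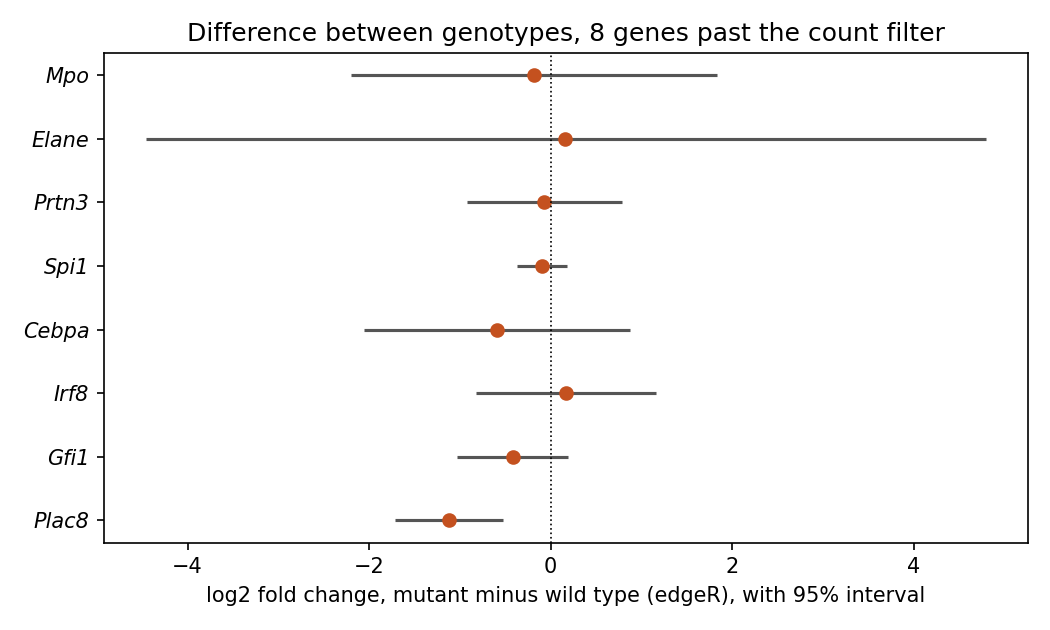
Log2 fold change for mutant minus wild type from edgeR (points) with its 95% interval (lines) for the 8 genes past the count filter. The interval of Spi1 is the narrowest (-0.37 to 0.18) and that of Elane the widest (-4.46 to 4.79), and Plac8, chosen for its difference, lies at -1.12.

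The nearest neighbours of Plac8 had similar values in both genotypes, and 1 low gene nearby was lower. The nearest tested neighbours are Cops4, a subunit gene of the COP9 signalosome 5922 bases away, and Coq2, an enzyme gene of coenzyme Q synthesis 82478 bases away on the other side. Cops4 had 72.5 ± 4.08 FPKM in wild type against 66.9 ± 3.99 FPKM in mutant cells, and Coq2 66.1 ± 7.62 and 64.6 ± 8.91 FPKM (SD, n = 3 each). Of 11 tested genes within 0.5 Mb of Plac8, 1 had an unadjusted p under 0.05 (3.99% over all tested genes), the acyltransferase gene Agpat9, with a mean of 1.28 FPKM and a log2 fold change of -1.16 (SE 0.41), which was singled out after its values were seen. Over 42 other tested genes within 5 Mb the median log2 fold change was -0.02, with 3 lower and 2 higher at an unadjusted p under 0.05, against 1.7% lower and 2.28% higher over all tested genes. Chromosome 5 holds 8 of the 37 calls, Plac8 included, of the authors' deposited table. The share of all genes that lie on chromosome 5 was not counted, so this number has no background to be read against. Gfi1, the other gene of the set on chromosome 5, starts 7.14 Mb beyond the end of Plac8. Within 0.5 Mb of Elane and Prtn3, 1 of 45 tested genes had an unadjusted p under 0.05, and within 0.5 Mb of Mpo 0 of 16.

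**Figure D4:**
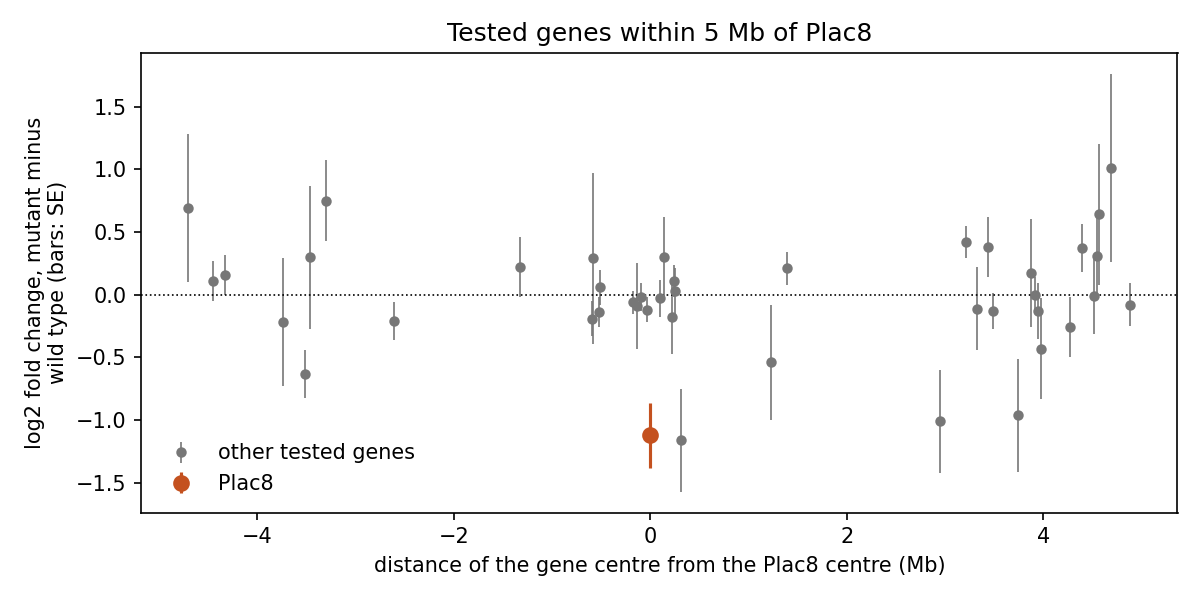
Log2 fold change for mutant minus wild type (points, bars are SE) of each tested gene within 5 Mb of Plac8, by distance of its centre from that of Plac8 in Mb. Plac8 lies at -1.12, and the other 42 genes have a median of -0.02.

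The genes whose course over the 6 libraries was most like that of Plac8 were sought among 9887 genes with a mean of at least 2 FPKM, by the root mean square difference of mean-centred log2 CPM. Gpr97, an adhesion-type receptor gene of granulocytes, was closest at 0.15, with 7.85 ± 1.79 FPKM in wild type against 4.25 ± 1.46 FPKM in mutant cells. Oasl1, an interferon-induced gene on chromosome 5, followed at 0.24 with 9.75 ± 3.83 and 4.49 ± 0.775 FPKM. Zfp948 (0.28), the immune inhibitory ligand gene Cd200 (0.30) and Ppox, an enzyme gene of haem synthesis (0.32), came next. The search matched the whole course of Plac8, its genotype difference included, so lower mutant values in these genes follow from the search. For Mpo the closest of these candidates were Grtp1 (0.63), the interferon-induced GTPase gene Gbp6 (0.64), Cyp4b1 (0.68), the noncoding RNA Gas5 (0.75) and Apol7e (0.78). Ms4a3, Fcnb and Ctsg, also highest in replicate 2 of both genotypes, had means under 2 FPKM. They were therefore left out of the search, and their distance from Mpo was not tested. Elane, which shared the high libraries of Mpo but with a wider swing, differed from it by 2.18 on this measure, and Prtn3 by 1.29.

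No receptor or further regulator of the myeloid programme passed the adjusted threshold of edgeR, and Csf3r, Id2 and Zfpm1 had an unadjusted p under 0.05. Of 10 myeloid cytokine receptor genes tested, 3 had higher and 7 lower values in mutant cells, with a median log2 fold change of -0.03. Csf3r, the receptor gene for G-CSF, a cytokine used to mobilize stem cells, had 38.4, 35.1 and 36.5 FPKM in wild type against 53.9, 39.3 and 41.5 FPKM in mutant libraries. Its mutant values all lay above the wild-type ones (log2 fold change 0.29, SE 0.12, unadjusted p = 0.0469, edgeR adjusted p = 0.999). Kit, the stem cell factor receptor gene, had 387 ± 69.7 and 368 ± 101 FPKM. Flt3 had 17.9 ± 6.43 and 14.0 ± 4.29 FPKM, and Csf2ra, a subunit gene of the GM-CSF receptor, 12.5 ± 1.44 and 12.5 ± 0.828 FPKM (SD, n = 3 each).

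Of 25 further regulators of myeloid choice, 24 were tested, 13 with higher and 11 with lower values in mutant cells, with a median log2 fold change of 0.05. Id2, an inhibitor of E proteins that acts in lymphoid and dendritic lineages, had 8.94, 8.10 and 5.46 FPKM in wild type against 18.9, 12.6 and 14.1 FPKM in mutant libraries, without overlap (log2 fold change 1.01, SE 0.25, unadjusted p = 0.00412). Zfpm1, the GATA1 cofactor FOG1, had 51.8, 17.1 and 5.97 FPKM against 7.89, 6.71 and 7.71 FPKM; its log2 fold change of -1.74 (SE 0.64, unadjusted p = 0.0273) rested on wild-type replicates 1 and 2, and the groups overlapped. The most abundant regulators had similar means, with Myc at 174 ± 20.7 and 160 ± 52.2 FPKM, Mycn at 129 ± 16.3 and 136 ± 41.2 FPKM, Gata2 at 131 ± 5.66 and 129 ± 15.9 FPKM and Cbfb, the partner of Runx1, at 104 ± 2.08 and 98.2 ± 14.9 FPKM (SD, n = 3 each). At an unadjusted p under 0.05, 2.28% of all tested genes were higher and 1.7% were lower.

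**Figure D5:**
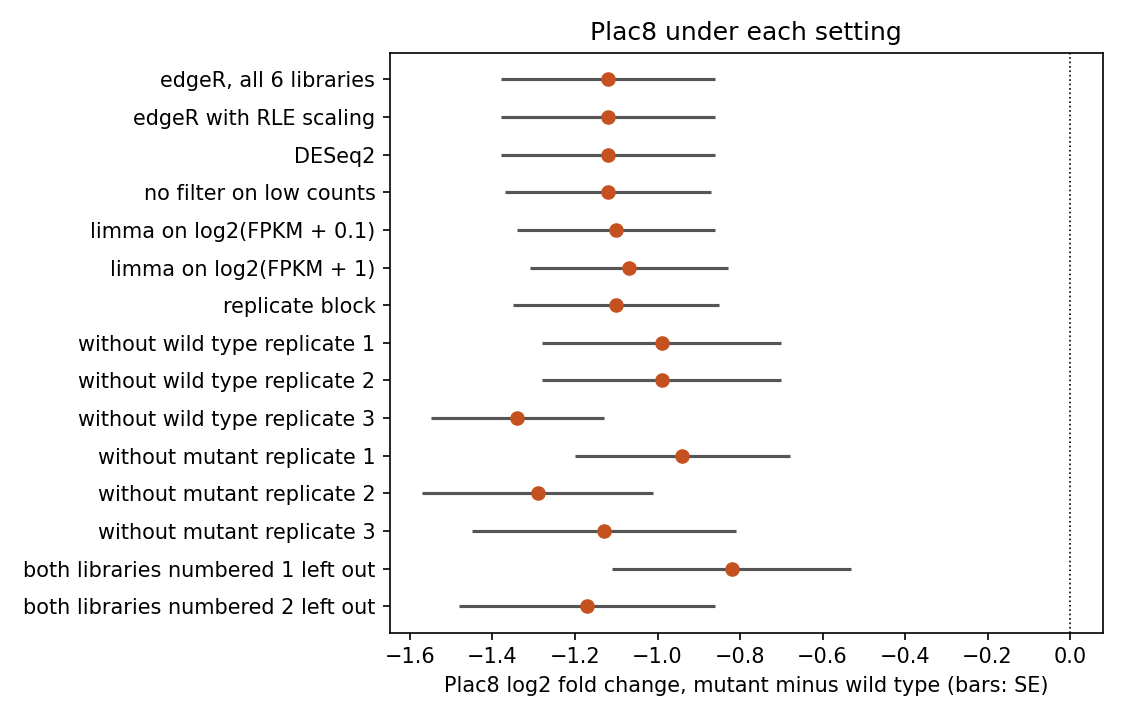
Log2 fold change of Plac8 for mutant minus wild type (points, bars are SE) under each setting, with all 6 libraries at the top. The values run from -1.34 without wild-type replicate 3 to -0.82 without both replicate 1 libraries.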

How the data were processed

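RNA was sequenced in 6 libraries, grouped by the genotype in their labels. Tools listed by the submitters' processing notes, without role or order, are STAR, CASAVA, DESeq2 and HTSeq 0.6.1, and the build is mm10. One deposited table, per the file headers, holds raw read counts, FPKM, gene coordinates and the authors' log2 fold changes and p-values, and the authors' size-factor-normalized signal, which was not used here. A second deposited table holds FPKM only. The annotation release and the strand setting are not given in the sources used here.

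The deposited counts of all genes were fitted with edgeR 4.0.16 (R 4.3.3), using TMM scaling, filterByExpr and the two-sided quasi-likelihood F test, with Benjamini-Hochberg adjustment over 14443 genes and a threshold of 0.05. The SE was taken as the ratio of the log2 fold change to the root of the F statistic, and the 95% interval uses 7.84 degrees of freedom. Log2 CPM had a prior count of 2. An exact two-sided permutation test of 3 against 3 values cannot go below p = 0.1. On simulated counts for mutant minus wild type over 14443 genes, 50 genes were changed at each fold. The share of them that edgeR called was 14% for a fold of 1.5, 50% for a fold of 2, 80% for 4 and 86% for 8. Of its calls, 8% were unchanged genes. A Benjamini-Hochberg cut is easier to pass when many genes differ, and the real comparison had 3 calls. A real difference of a given fold may therefore be called less often than in the simulation. Alternatives were RLE scaling, no filter, DESeq2 1.42.0, limma 3.58.1 on log2(FPKM + 0.1) and log2(FPKM + 1), each library left out, both replicate 1 libraries left out, the replicate number as a block and, added after the data were seen, both replicate 2 libraries left out.

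The genes and lists were chosen with earlier results of these data known. Named genes were the 10 of the set, Ramp1, up to 4 of the most abundant of each list and those at an unadjusted p under 0.05, the nearest tested neighbours, and the 5 genes most like Plac8 and Mpo by library profile; others are said to be chosen after their values were seen. Promoters came from RefSeq on GRCm38.p6. Of the listed symbols, 1 (Adgre1) was matched through its gene identifier. No pooling of libraries is stated.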

Additional observations from a re-analysis of the deposited data

How the results depend on the processing

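No gene of the set passed the edgeR threshold under RLE scaling, without the count filter, with limma on either pseudocount, with the replicate number as a block, with any 1 library left out, or without both libraries numbered 1 or 2, whereas DESeq2 called 1, Plac8. Over all genes edgeR called 3, DESeq2 44, the block 2, and the fit without both libraries numbered 2 called 5. The count was 2 to 6 with 1 library left out, the 6 being without mutant replicate 2. Plac8 stayed negative in all 14 alternatives, between -1.34 and -0.82. Cebpa, Gfi1 and Spi1 stayed negative too, but Cebpa ran from -1.17 (without mutant replicate 2) to -0.24 (without mutant replicate 1), Gfi1 from -0.61 (without wild-type replicate 2) to -0.12 (without wild-type replicate 3) and Spi1 from -0.16 to -0.02 with 1 library left out. With 1 library left out, Mpo ran from -1.46 (without mutant replicate 2) to 1.16 (without wild-type replicate 2), Elane from -5.65 to 4.43 for the same libraries, Prtn3 from -0.39 to 0.23 and Irf8 from -0.45 to 0.48. Elane also changed sign with limma on log2(FPKM + 0.1) (-0.69) and log2(FPKM + 1) (-0.14), and Prtn3 without both libraries numbered 2 (0.42); the cause was not tested.

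The replicate block gave -0.44 for Elane, against 0.16 without it. The labels do not say that a number marks a pair. Deviations from the group means had correlations over genes of 0.138, 0.00181 and -0.094 for libraries numbered 1, 2 and 3. Between differently numbered libraries they ran from -0.133 (wild-type replicate 2 with mutant replicate 1) to 0.146 (wild-type replicate 2 with mutant replicate 3). The values for equal numbers lay within this range, and the numbers were not taken as pairs. Some features nevertheless went by number in both genotypes. Y-linked reads were found in replicate 1, Mpo, Elane and Ctsg were highest in replicate 2, and summed mature neutrophil markers rose from replicate 1 to 3. What libraries of equal number may share was not tested. Ctsg and Cebpe rest on few reads in most libraries, so differences between genotypes were not detectable for them at this depth. The SE of 2.0 for Elane goes with its SD of 3.98 between libraries of a group.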

Other observations

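A few genes outside the granule programme shared the high values of replicate 2 in both genotypes; they were singled out after their values were seen. Of 14443 tested genes, 19 were at least 2-fold above each other library of their group in replicate 2 of both genotypes, which is 0.132%, and 4 were at least 4-fold above. Among genes past the count filter with a mean of at least 1 FPKM, predicted ones left out, Elane, Ms4a3 and Mpo had the widest smaller gap, at 4.92, 2.54 and 2.13 on the log2 scale; Ctsg, which did not pass the filter, was not ranked. Igkc, the immunoglobulin kappa constant gene, came next at 1.75, with 0.488, 12.3 and 1.46 FPKM in wild type against 0.543, 36.8 and 10.9 FPKM in mutant libraries. Gbp6, an interferon-induced GTPase gene, had 4.63, 15.6 and 6.45 FPKM against 3.99, 36.3 and 13.5 FPKM. F2rl2, a protease-activated receptor gene, had 1.26, 3.26 and 0.735 FPKM against 0.859, 2.02 and 0.596 FPKM.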
